A study of Mus musculus with 7 samples.

Results

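Collagen chains are the secreted or membrane-bound proteins that assemble as trimers into fibrils, basement membrane networks and other scaffolds of the tissue matrix. They were chosen by name: every gene of the deposited table whose symbol consists of Col, a number, the letter a and a number. The rule found 42 of the 16167 genes listed. Of these, 11 encode fibrillar chains, 6 encode type IV chains of basement membranes and 25 encode other chains. After a filter on low values, 31 of the 42 were tested, comprising 10 fibrillar, 5 type IV and 16 other chains.

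The tissue was whole mouse kidney at E15.5, with 7 RNA libraries. Mutants (4 libraries) were embryos labelled Six2-Cre; Irx3/5(loxP/loxP), with floxed alleles of the Iroquois homeobox genes Irx3 and Irx5 on both chromosomes and a Cre recombinase active in nephron progenitors. Controls (3 libraries) were Irx3/5(loxP/+) littermates, which the genotype tag calls WT. The control titles name no Cre, so the transgene and the deletion cannot be told apart as sources of a difference. Six2-Cre acts in the progenitors of nephron epithelium and podocytes, and stroma, vessels and ureteric tree arise from other cells. How many embryos went into a library is not stated, so a p-value here speaks only of the spread between libraries. In bulk RNA, fewer cells of a type and less RNA per cell cannot be told apart.

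A collagen chain carries the Gly-X-Y repeat, in which glycine opens each unit of 3 residues because only this smallest residue fits inside the triple helix. Fibrillar chains (types I, II, III, V, XI, XXIV and XXVII) have a long uninterrupted helix and pack side by side into fibrils, which in the kidney lie in the stroma and around vessels. Type IV chains have many interruptions in the repeat and join end to end into the sheet that underlies epithelium, endothelium and podocytes. Beaded filament (type VI), fibril-associated, network, multiplexin and transmembrane chains have shorter helices and serve as linkers, coats and cell anchors.

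The repeat was counted in the longest listed coding sequence of each of the 42 chains in GENCODE M21 (GRCm38), as runs of at least 6 units that each begin with a glycine codon. In 9 of the 11 fibrillar chains the longest run had 337 to 344 units. Col24a1 and Col27a1, the 2 exceptions, had longest runs of 216 and 217 units in 3 runs each. The 6 type IV chains broke the repeat into 22 to 27 runs, of which the longest had 39 to 66 units. Among the other chains the longest run was shortest in Col26a1, with 23 units, and longest in Col9a1, Col9a2, Col9a3 and Col22a1, with 113 units. The opening 90 bases of the longest run are printed for 5 chains, a fibrillar chain that did not pass the test, the most abundant type IV chain and the 3 chains that were lower in mutants by at least 1 of the 2 tests described below. Capitals mark the glycine codon that opens each unit, and the sequences are coding strand, 5′ to 3′, from GENCODE M21.
Col3a1, codons 164 to 193: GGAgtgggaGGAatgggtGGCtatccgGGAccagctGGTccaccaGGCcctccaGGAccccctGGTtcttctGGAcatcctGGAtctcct
Col4a1, codons 1233 to 1262: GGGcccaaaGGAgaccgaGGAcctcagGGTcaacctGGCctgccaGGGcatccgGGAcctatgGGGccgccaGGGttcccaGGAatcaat
Col11a2, codons 487 to 516: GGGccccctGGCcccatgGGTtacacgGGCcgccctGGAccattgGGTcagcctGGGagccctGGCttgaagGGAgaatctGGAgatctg
Col13a1, codons 468 to 497: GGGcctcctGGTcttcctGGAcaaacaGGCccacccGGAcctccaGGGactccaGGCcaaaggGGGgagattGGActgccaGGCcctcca
Col8a1, codons 352 to 381: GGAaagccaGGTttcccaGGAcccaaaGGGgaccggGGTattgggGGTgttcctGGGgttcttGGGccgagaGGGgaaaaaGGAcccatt

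**Figure D1:**
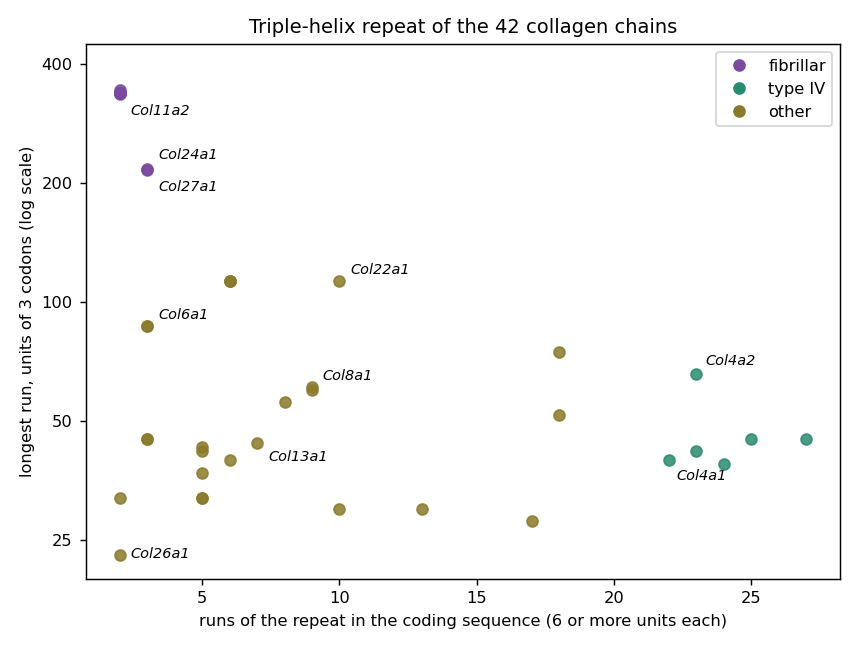
Each point is a collagen chain, coloured by class. The x axis gives the number of runs of the glycine repeat in its coding sequence and the y axis, on a log scale, the length of the longest run in units of 3 codons. Fibrillar chains sit at 2 or 3 runs with 216 to 344 units in the longest, and type IV chains at 22 to 27 runs with 39 to 66 units.

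The libraries held 40511920 to 69028943 reads in listed genes, and no pair of libraries agreed within counting noise (lowest chi-square per gene 20.4). Irx3 stood at 12.7 to 14.7 in controls and at 3.98 to 6.75 FPKM in mutants (log2 fold change -1.16 with an SE of 0.149, adjusted p = 0.0145 in limma). Irx5 overlapped between the groups (limma adjusted p = 0.989), and since reads from parts of a gene outside a deletion still count, its value does not check the deletion. Among marker lists, 5 of 8 nephron progenitor genes fell, where limma called 1.05% of all tested genes lower and 0.475% higher. By the same test, 1 of 10 stromal genes (Aldh1a2) and 1 of 10 ureteric genes (Calb1) rose, and 1 of 4 bone genes and 1 of 3 mesothelial and capsule genes fell. In the authors' deposited table, 5 stromal genes had an adjusted p under 0.05 and were higher and 1 was lower, and 4 ureteric genes were higher and 1 lower. Of the endothelial, smooth muscle, skeletal muscle and immune lists, 0 genes passed in limma, with 1, 0, 0 and 4 at an unadjusted p under 0.05 (13.7% of all tested genes) and 0 in the authors' deposited table. The libraries did not stand alike: control replicate 1 had a summed skeletal muscle marker level of 78.2 FPKM against 8.39 to 9.49 in the other 6 libraries. In mutant replicate 3, embryonic beta-globin Hbb-y was 10.5% of adult Hbb-bs by FPKM, against 1.34% to 3.45% elsewhere.

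The transmembrane chain Col13a1 was lower in mutants and passed the test across all genes. The fibrillar chain Col11a2 was also called lower, but it reached the filter in the 3 controls and in 0 of the 4 mutants, so it entered the test only through the group in which it was high. The limma test ran on log2(FPKM + 1) over 13466 genes with at least 1 FPKM in at least 3 libraries. It called 2 of 31 chains at an adjusted p under 0.05, where 1.53% of all tested genes were called (0.475% higher and 1.05% lower in mutants). By the DESeq2 comparison in the authors' deposited table, 4 of the 42 chains had an adjusted p under 0.05, against 5.49% of all genes with a p there (1.75% higher and 3.74% lower). These were Col11a2, Col13a1 and the network chain Col8a1, all lower, and Col26a1, higher. Mutant and control values did not overlap for 4 of the 31 tested chains, 2 higher (Col26a1 and Col23a1) and 2 lower, compared with 14.5% of all tested genes (5.93% higher and 8.61% lower).

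The class medians differed in sign, and no test of a class was run. The median log2 fold change was 0.18 for fibrillar chains (8 of 10 above 0), -0.13 for type IV chains (1 of 5 above 0) and 0.15 for other chains (13 of 16 above 0). Over all tested genes the median was -0.00 and 49.2% were above 0. These medians moved with single libraries: without control replicate 1 they were 0.34, -0.06 and 0.27 in the same order of classes, and without mutant replicate 3 they were 0.02, -0.13 and 0.07. Without control replicate 2 the medians were 0.12, -0.15 and 0.09, and without control replicate 3 they were 0.11, -0.19 and 0.09. With the globin ratio as a covariate the fibrillar median was 0.10. The call of Col13a1 was lost when any control, mutant replicate 2 or mutant replicate 4 was left out, and that of Col11a2 when mutant replicate 2, 3 or 4 was left out. With the trend on GC content removed from each library, the adjusted p of Col11a2 in limma was 0.0593 at a log2 fold change of -0.60. Without mutant replicates 2, 3 and 4 the log2 fold change of Col11a2 was -0.73, -0.78 and -0.78, and without mutant replicates 2 and 4 that of Col13a1 was -0.55 and -0.52.

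**Figure D2:**
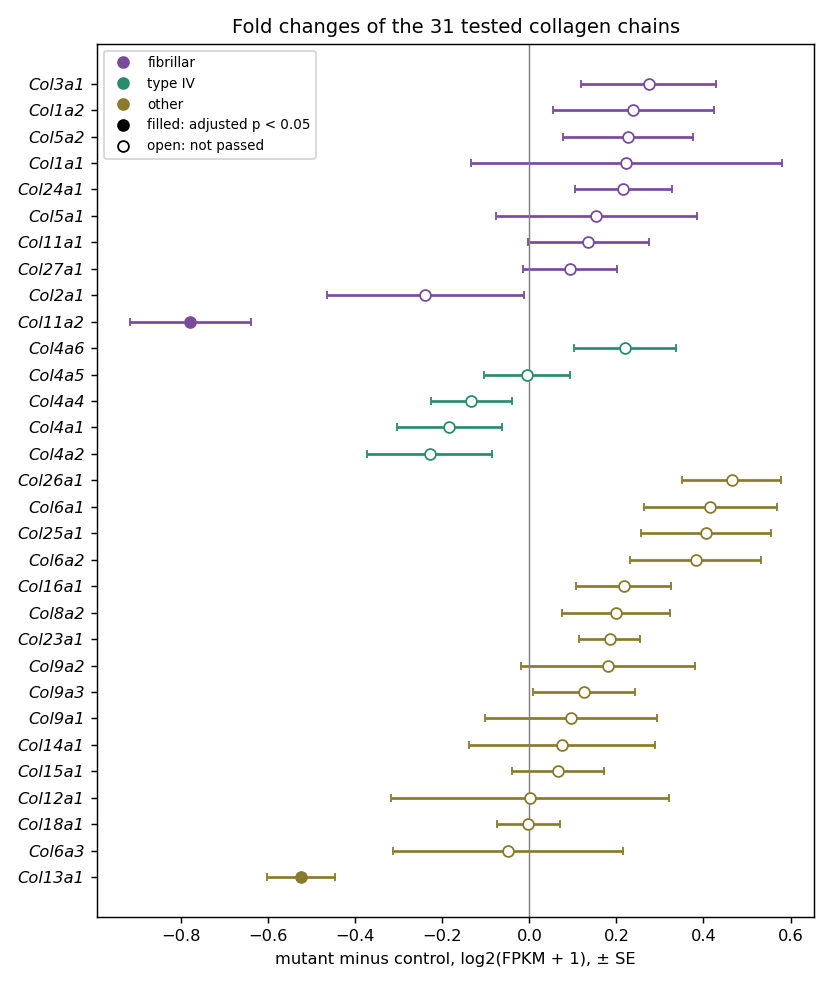
Each point is the mutant minus control difference of a tested chain on the log2(FPKM + 1) scale, with its limma standard error as the bar, grouped by class and coloured as fibrillar, type IV or other. The filled points, Col11a2 at -0.78 and Col13a1 at -0.525, passed an adjusted p under 0.05, and the 29 open points did not.

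The fibrillar group was led by the chains of types III and I. In what follows, values are FPKM in control replicates 1 to 3 and then in mutant replicates 1 to 4, and levels of different genes are compared only as FPKM, which is per gene length. Col3a1, the single chain of type III collagen, stood at 181, 135 and 132 in controls and at 180, 154, 227 and 163 FPKM in mutants. Col1a2, the second chain type of the type I trimer, stood at 172, 123 and 110 against 159, 133, 203 and 140 FPKM. Col1a1, the other type I chain, stood at 128, 72.9 and 62.9 against 106, 63.2, 157 and 86.8 FPKM. In all 3 genes, control replicate 1 and mutant replicate 3 were the highest of their group and the groups overlapped. Their log2 fold changes were 0.27 (SE 0.155), 0.24 (SE 0.184) and 0.22 (SE 0.357), with limma adjusted p of 0.521, 0.682 and 0.887. Without mutant replicate 3 the Col1a1 difference was -0.003.

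The type V chains, which sit inside type I fibrils and limit their width, had the same shape. Col5a2 stood at 29.4, 22.1 and 23.8 in controls and at 26.1, 27.2, 38.8 and 26.9 FPKM in mutants. Col5a1 stood at 22.9, 15.1 and 15.4 against 19.0, 14.7, 28.7 and 18.2 FPKM. Mutant replicate 3 stood above the other 6 libraries in both genes, and the remaining values overlapped. The log2 fold changes were 0.23 (SE 0.15) and 0.15 (SE 0.23), with limma adjusted p of 0.613 and 0.878. Without mutant replicate 3, that of Col5a1 was -0.02. Col5a3 was below the filter, at 0.655 to 0.928 in controls and 0.478 to 2.52 FPKM in mutants, with its highest value again in mutant replicate 3.

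Types II and XI, the fibril collagens best known from cartilage, are described together. Col11a2, a chain of type XI collagen, stood at 2.08, 1.45 and 2.71 in controls and at 0.942, 0.60, 0.776 and 0.776 FPKM in mutants. All 4 mutants lay below all 3 controls, and the mutant mean was 0.372 of the control mean (2.08 ± 0.627, n = 3; 0.774 ± 0.14, n = 4; SD). The log2 fold change was -0.78 (SE 0.139, limma adjusted p = 0.0396), which understates the change of so low a gene. In the authors' deposited table the log2 fold change of Col11a2 was -1.42 (adjusted p = 9.32e-08). Each library held 187 to 968 reads of it. The gene passed the filter only through the 3 controls, since 0 of 4 mutants reached 1 FPKM, so it could not be tested once a control was left out.

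Col11a1, the partner chain of Col11a2, stood at 3.70, 2.90 and 3.15 in controls and at 2.98, 3.30, 4.95 and 3.62 FPKM in mutants. The groups overlapped (log2 fold change 0.14, SE 0.139, limma adjusted p = 0.786). Col2a1, the type II chain, stood at 7.52, 6.19 and 10.9 against 6.48, 4.84, 9.57 and 6.33 FPKM and also overlapped (-0.24, SE 0.226, limma adjusted p = 0.76). Within each library, the ratio of Col11a2 to Col11a1 was 0.501 to 0.859 in controls and 0.157 to 0.317 in mutants. The ratio of Col11a2 to Col2a1 was 0.235 to 0.277 in controls and 0.0811 to 0.145 in mutants. Both ratios lay apart between the groups, but they restate the low Col11a2 values, and a difference between the chains was not tested. Cartilage was checked by its markers: 4 of 10 were listed and 1 was tested, Hapln1, which did not pass. Acan, the main cartilage proteoglycan, was at 0.075 to 0.119 FPKM in the 7 libraries, and the 4 markers summed to 4.19 to 7.12 in controls and 6.84 to 7.95 FPKM in mutants. Most of that sum was Hapln1, with means of 4.43 of 5.89 in controls and 6.04 of 7.38 FPKM in mutants. The sum therefore mostly restates Hapln1.

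Col27a1 and Col24a1, the fibrillar chains with the shorter uninterrupted repeat, did not pass. Col27a1 stood at 8.0, 6.38 and 7.47 in controls and at 7.01, 7.97, 9.29 and 7.16 FPKM in mutants (log2 fold change 0.09, SE 0.108, limma adjusted p = 0.815). Col24a1 stood at 1.29, 1.01 and 0.989 against 1.10, 1.44, 1.80 and 1.43 FPKM (0.22, SE 0.112, limma adjusted p = 0.472). In Col24a1, 3 of 4 mutants were above all controls and mutant replicate 1 was not. Summed over the 11 fibrillar chains, the level was 557, 387 and 370 in controls and 510, 411, 684 and 456 FPKM in mutants. Control replicate 1 exceeded 3 of the 4 mutants.

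The type IV chains were the class in which most log2 fold changes were below 0, and none of the 5 tested passed. Those below 0 include Col4a5 at -0.005 (SE 0.099), whose sign turned with the setting. In limma 0 of 5 were called, with 0 at an unadjusted p under 0.05, and 0 of 6 had an adjusted p under 0.05 in the authors' deposited table. Col4a1, whose product pairs with that of Col4a2 in nearly every basement membrane, had the highest control mean of the collagen chains by FPKM. That mean was 151, against 149 for Col3a1, which was the higher of both in control replicates 1 and 2. Col4a1 stood at 176, 130 and 148 in controls and at 124, 119, 155 and 133 FPKM in mutants. Col4a2 stood at 77.9, 54.2 and 65.9 against 54.8, 46.4, 66.6 and 56.4 FPKM. The groups overlapped in both, since mutant replicate 3 was above control replicate 2. The log2 fold changes were -0.18 (SE 0.121, limma adjusted p = 0.607) and -0.23 (SE 0.144, limma adjusted p = 0.584). They stayed below 0 under every alternative setting tried, from -0.29 to -0.07 for Col4a1 and from -0.36 to -0.10 for Col4a2. The settings reuse the same libraries, so the constant sign is no separate support, and neither chain was called in any of them.

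Col4a3, Col4a4 and Col4a5 encode the chains of the mature glomerular basement membrane, which podocytes make as the glomerulus matures. Col4a3 was below the filter, at 0.671, 0.496 and 0.473 in controls and 0.386, 0.560, 0.350 and 0.424 FPKM in mutants. Col4a4 stood at 1.44, 1.13 and 1.04 against 0.953, 1.16, 0.982 and 0.918 FPKM. In both genes 3 of 4 mutants lay below all controls, and mutant replicate 2 did not. The log2 fold change of Col4a4 was -0.13 (SE 0.094, limma adjusted p = 0.638). In the authors' deposited table, the log2 fold changes of Col4a3 and Col4a4 were -0.35 and -0.26, with adjusted p of 0.553 and 0.497.

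Col4a5, which also joins the Col4a6 chain in other basement membranes, stood at 13.7, 11.5 and 13.0 in controls and at 11.0, 12.7, 14.7 and 12.5 FPKM in mutants. Its log2 fold change was -0.005 (SE 0.099, limma adjusted p = 0.994), and the sign turned with the setting. Col4a6 stood at 1.98, 1.51 and 1.66 against 1.70, 2.05, 2.69 and 2.26 FPKM. There 3 of 4 mutants were above all controls, mutant replicate 1 was not, and the log2 fold change was 0.22 (SE 0.117, limma adjusted p = 0.49). Neither chain passed. The ratio of Col4a5 to Col4a6 was 6.89, 7.58 and 7.87 in controls and 6.46, 6.21, 5.47 and 5.51 in mutants. All 4 mutant ratios were below all control ratios, and the difference between the chains was not tested. Several ratios of chains were examined, and how often ratios of other genes lie apart was not counted. The ratio of Col4a1 to Col4a2, the genes that share a promoter region head to head, was 2.25 to 2.40 in controls and 2.26 to 2.57 in mutants and overlapped. Type IV chains made up 24.8%, 24.7% and 28.0% of all collagen FPKM in controls and 19.8%, 21.6%, 19.2% and 22.5% in mutants. That share lay apart between the groups, while the summed type IV level itself, 199 to 272 against 182 to 240 FPKM, overlapped. The share was not tested, and the same count for other gene groups was not made.

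**Figure D3:**
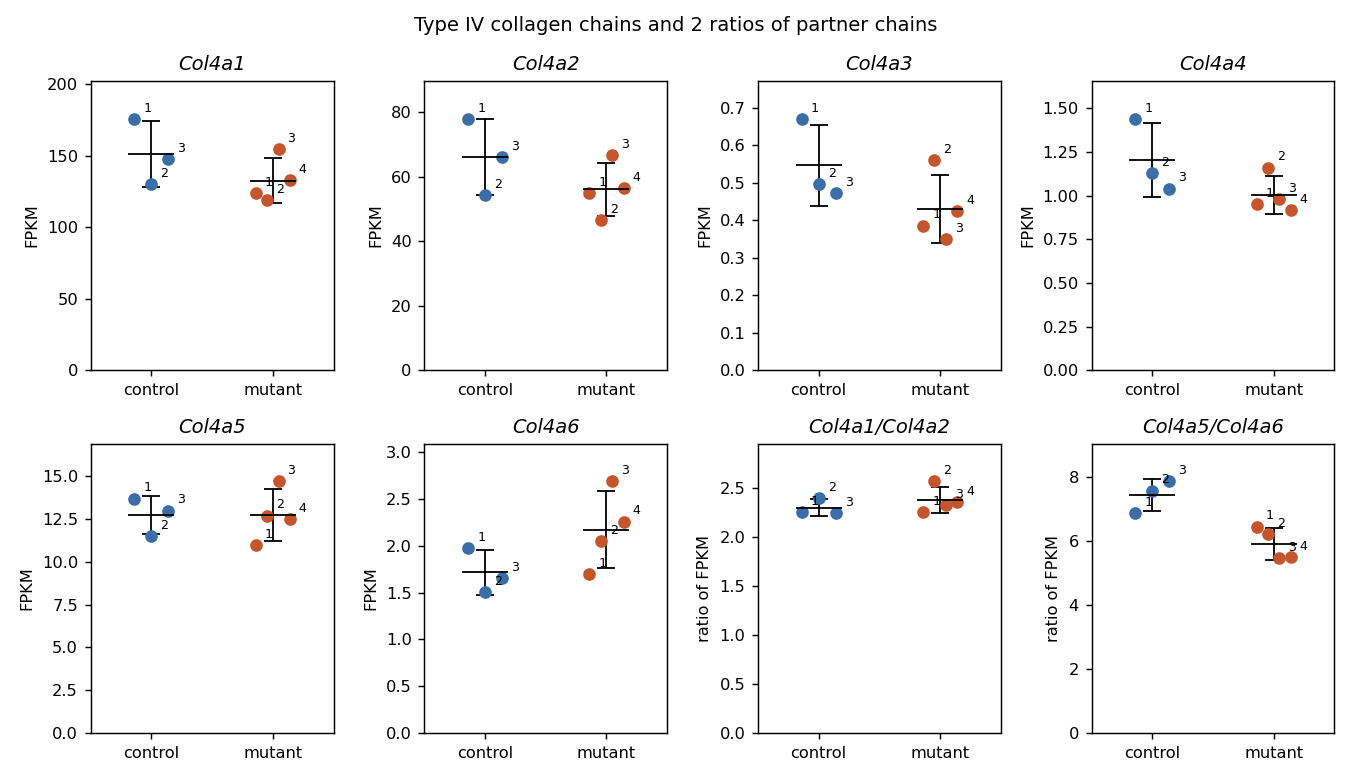
FPKM of the 6 type IV chains and the ratios of Col4a1 to Col4a2 and of Col4a5 to Col4a6 in 3 controls and 4 mutants. Points are libraries numbered by replicate, and the bar gives the mean ± SD. The groups overlap in every panel except the ratio of Col4a5 to Col4a6, which is 6.89 to 7.87 in controls and 5.47 to 6.46 in mutants.

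Col13a1, among the other chains, showed the tightest separation. It encodes a collagen that spans the cell membrane and is best known from the neuromuscular junction and from sites where cells attach to matrix. It stood at 6.22, 5.63 and 6.80 in controls and at 3.96, 4.23, 3.85 and 3.99 FPKM in mutants. All 4 mutants lay below all 3 controls, and the mutant mean was 0.644 of the control mean (6.22 ± 0.585, n = 3; 4.01 ± 0.161, n = 4; SD). The log2 fold change was -0.525 (SE 0.078, limma adjusted p = 0.0215). In the authors' deposited table it was -0.63 (adjusted p = 8.15e-07). Left out one at a time, control replicates 1, 2 and 3 gave adjusted p of 0.12, 0.0949 and 0.0754 and log2 fold changes of -0.52, -0.58 and -0.47.

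The other transmembrane chains did not follow Col13a1. Col25a1 stood at 3.75, 2.27 and 2.45 in controls and at 3.26, 4.85, 4.03 and 3.97 FPKM in mutants. Only mutant replicate 1 lay inside the control range (log2 fold change 0.41, SE 0.149, limma adjusted p = 0.259). Col23a1 stood at 11.4, 11.3 and 10.3 against 12.6, 13.3, 13.0 and 11.7 FPKM. Its groups did not overlap, but the log2 fold change of 0.19 (SE 0.07) did not pass (limma adjusted p = 0.266). Col17a1, the collagen of the hemidesmosome, was below the filter at 0.11 to 0.26 FPKM in all libraries.

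Col26a1 had the largest positive difference of the tested chains. Its product carries an EMI domain and the shortest collagen repeat of the 42 chains. It stood at 43.5, 42.7 and 44.6 in controls and at 62.0, 52.3, 75.1 and 55.3 FPKM in mutants. All 4 mutants lay above all 3 controls, and the mutant mean was 1.40 times the control mean (43.6 ± 0.974, n = 3; 61.2 ± 10.1, n = 4; SD). The limma test did not call it (log2 fold change 0.465, SE 0.114, adjusted p = 0.0891), while the authors' deposited table gave 0.49 with an adjusted p of 0.00481. Under limma with array weights, or after removal of the trend on GC content, its adjusted p was 0.0183 and 0.041. Of 21 alternatives, 4 called it, the deposited test among them. Left out one at a time, control replicates 1, 2 and 3 gave limma adjusted p of 0.253, 0.332 and 0.215.

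Col8a1 and Col8a2 encode the short-chain collagens of hexagonal networks in vessel walls and the cornea. Col8a1 stood at 1.00, 0.785 and 0.658 in controls and at 0.454, 0.418, 0.404 and 0.336 FPKM in mutants, with 88 to 357 reads per library. All mutants lay below all controls and the ratio of means was 0.495, but the gene did not reach the filter and has no place in the main test. In the authors' deposited table its log2 fold change was -1.02 (adjusted p = 0.000378), and limma without the filter called it as well. Col8a2 stood at 6.96 to 8.68 in controls and 7.67 to 11.2 FPKM in mutants, overlapped and did not pass (log2 fold change 0.20, SE 0.124, limma adjusted p = 0.578). The ratio of Col8a1 to Col8a2 was 0.0945 to 0.115 in controls and 0.036 to 0.0498 in mutants, so it lay apart, though a difference between the chains was not tested. Smooth muscle markers, a wall component of vessels and ureter, summed to 93.8 to 179 in controls and 103 to 144 FPKM in mutants and overlapped. All 7 tested markers of that list had log2 fold changes below 0 (median -0.205), against 49.2% above 0 over all tested genes. None of the 7 was called by limma, and their part in the Col8a1 values was not tested.

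**Figure D4:**
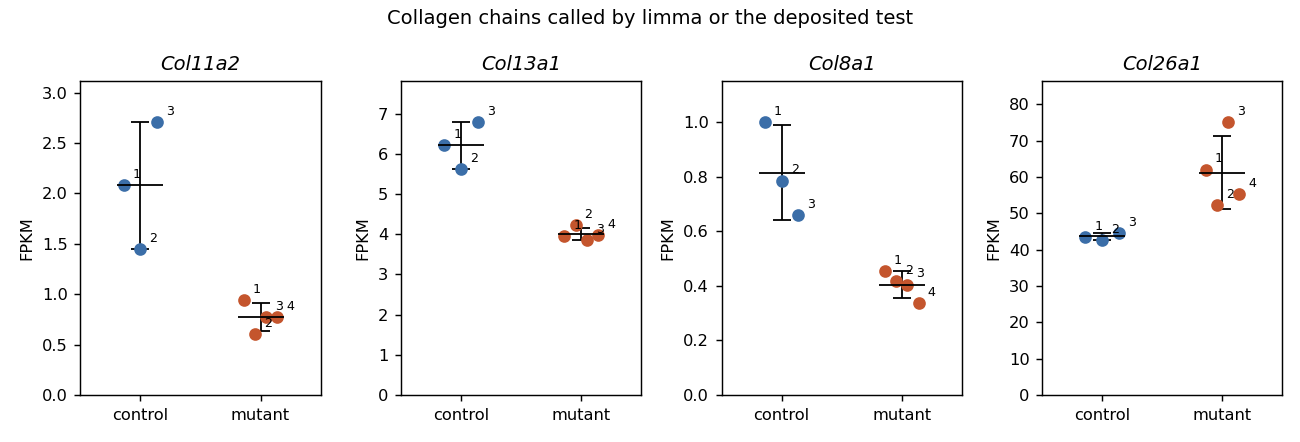
FPKM of the 4 chains called by limma or in the authors' deposited table. Points are libraries numbered by replicate, and the bar gives the mean ± SD. Mutants lie below controls for Col11a2, Col13a1 and Col8a1 and above them for Col26a1 (52.3 to 75.1 against 42.7 to 44.6 FPKM).

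Type VI collagen forms beaded filaments around cells, and none of its 3 tested chains passed. Col6a1 stood at 31.6, 23.5 and 21.9 in controls and at 34.3, 31.6, 42.7 and 29.3 FPKM in mutants. Control replicate 1 lay within the mutant range and the other 2 controls lay below it (log2 fold change 0.42, SE 0.153, limma adjusted p = 0.264). Col6a2, its neighbour on the same strand, stood at 22.3, 17.8 and 15.4 against 26.1, 21.1, 29.6 and 21.0 FPKM (0.38, SE 0.151, limma adjusted p = 0.299). Col6a3, the largest chain of the classic trimer, stood at 7.53, 4.01 and 3.91 against 3.59, 4.06, 7.48 and 4.54 FPKM, and its log2 fold change was -0.05 (SE 0.264, limma adjusted p = 0.973). Without control replicate 1 that value was 0.21. The ratio of Col6a1 to Col6a2 was 1.32 to 1.42 in controls and 1.32 to 1.5 in mutants. The ratio of Col6a3 to Col6a1 was 0.17 to 0.239 in controls and 0.105 to 0.175 in mutants, and both ratios overlapped. The alternative chains Col6a4, Col6a5 and Col6a6 were below the filter, and only Col6a6 exceeded 1 FPKM in both groups, with 1.32 FPKM in control replicate 1 and 2.33 FPKM in mutant replicate 3.

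The fibril-associated and multiplexin chains differed least. Of the fibril-associated chains, 6 of 8 were tested and their log2 fold changes ran from 0.00 (Col12a1) to 0.22 (Col16a1), with 0 called by limma, 0 at an unadjusted p under 0.05 and 0 in the authors' deposited table. Col16a1 stood at 11.3 to 14.7 in controls and 13.7 to 17.7 FPKM in mutants, and Col14a1 at 6.97 to 13.0 and 7.87 to 12.2 FPKM. Col12a1 ranged from 2.39 to 5.95 in controls and from 2.47 to 6.49 FPKM in mutants, more than 2-fold within each group. The type IX chains Col9a1, Col9a2 and Col9a3, which coat cartilage fibrils, had log2 fold changes of 0.10, 0.18 and 0.12 with SE of 0.197, 0.2 and 0.117. Col18a1, the source of endostatin in kidney basement membranes, stood at 57.3 to 64.1 in controls and 58.5 to 66.9 FPKM in mutants (-0.002, SE 0.072, limma adjusted p = 0.998). Col15a1, the related chain of vessel and muscle basement membranes, stood at 12.1 to 16.2 and 13.3 to 16.6 FPKM. Col7a1, Col20a1, Col22a1 and Col28a1 were below the filter, with no library above 0.982 FPKM.

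Within each genotype, most collagen chains were high in the same library. Control replicate 1 had the highest control value in 27 of the 31 tested chains, and mutant replicate 3 the highest mutant value in 26. Both held in 24 chains (77.4%), where 14.2% of all tested genes showed this pair of libraries on top. Alone, control replicate 1 was on top in 31.5% of all tested genes and mutant replicate 3 in 25.3%. The pair was picked from the values of these same chains, and the difference between the shares was not tested. The 4 chains in which control replicate 3 was the highest control were Col11a2, Col13a1, Col2a1 and Col26a1, and they include both chains called by limma. The 3 tested transmembrane chains had their highest mutant value outside mutant replicate 3. The median SD within groups on the log2 scale was 0.214 for collagen chains and 0.117 for all tested genes. It was highest for Col1a1, at 0.542.

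The pattern was also counted among long genes and with trends on gene length and GC content removed. Among the 3367 longest of the tested genes 37.6% had both libraries on top, and so did 19 of the 24 collagen chains among them (79.2%). With each library's trend on gene length removed, 21 chains (67.7%) and 12% of all genes still had it. With the trend on GC content alone removed, 24 chains (77.4%) and 16.5% of all genes had it. With both trends removed, 20 chains (64.5%) and 12.4% had it. Mutant replicate 3 had a skeletal muscle marker sum of 9.45 FPKM, within the range of the libraries other than control replicate 1, so that list was not high in both. The part of the globin ratio in mutant replicate 3 and of the muscle markers in control replicate 1 was not tested.

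**Figure D5:**
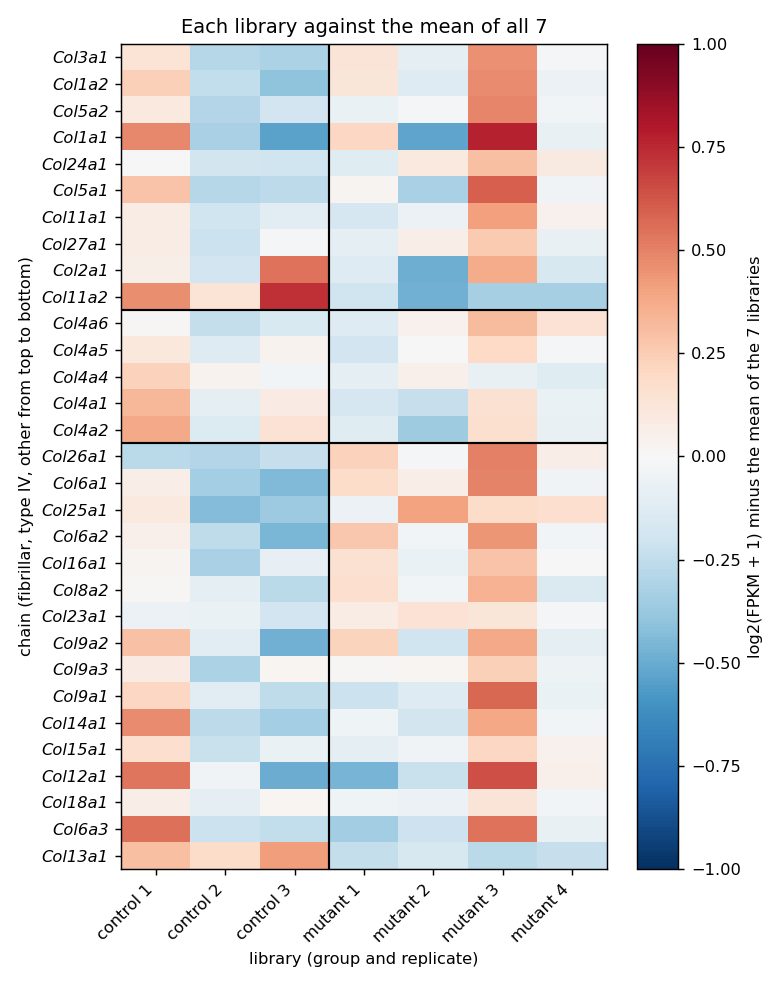
Rows are the 31 tested chains, grouped by class, and columns are the 7 libraries. Colour gives log2(FPKM + 1) minus the chain's mean over the 7 libraries, red above and blue below it. Control 1 and mutant 3 are red in most rows; Col11a2 and Col13a1, in the last rows of their classes, are red in the controls and blue in the mutants.

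The machinery that modifies, cleaves, cross-links and binds collagen was examined in lists holding 53 listed genes. Of these, 46 were tested and limma called 0, with 11 at an unadjusted p under 0.05 (8 higher in mutants), against 1.53% of all tested genes called and 13.7% at that unadjusted p. In the authors' deposited table, 7 of the 53 had an adjusted p under 0.05, against 5.49% of all genes, with Dcn, Ogn, P4ha3 and Fkbp10 higher and P3h2, Colgalt2 and Itga1 lower. The median log2 fold change of the 46 was 0.08 and 34 were above 0, against -0.00 and 49.2% over all tested genes. Mutant and control values did not overlap for 8 of the 46 that were higher and 3 that were lower. Over all tested genes this held for 14.5% (5.93% higher and 8.61% lower), and only some of these partner genes are named below.

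Among the enzymes and chaperones of the endoplasmic reticulum (19 tested), prolyl hydroxylases differed in direction. P4ha3, a catalytic subunit of prolyl 4-hydroxylase that stabilises the triple helix, stood at 4.86, 5.40 and 5.10 in controls and at 6.38, 6.4, 6.95 and 6.30 FPKM in mutants (log2 fold change 0.29, SE 0.069, limma adjusted p = 0.0802). P3h2, a prolyl 3-hydroxylase that acts on type IV collagen, stood at 11.6, 10.5 and 9.21 against 7.75, 7.97, 8.09 and 8.27 FPKM (-0.34, limma adjusted p = 0.0849). The groups did not overlap in either gene. Serpinh1, the collagen chaperone, was at 482 to 495 in controls and 492 to 539 FPKM in mutants, and overlapped.

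Propeptide cleavage and cross-linking held no gene that passed limma or had an adjusted p under 0.05 in the authors' deposited table. Bmp1, the procollagen C-proteinase, and Pcolce, its enhancer, had log2 fold changes of 0.20 and 0.15 (limma adjusted p = 0.448 and 0.681). Of the 6 cross-linking genes, the lysyl oxidase family and peroxidasin, Loxl3 had 0.22 (limma adjusted p = 0.283) and Loxl1 -0.31 (0.479). Peroxidasin, Pxdn, which makes the sulfilimine bond of type IV collagen, was at 26.1 to 34.1 in controls and 23.1 to 38.0 FPKM in mutants.

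None of the small proteoglycans that coat fibrils passed limma, and Dcn and Ogn had the smallest p of their list. Dcn (decorin) was at 64.9, 60 and 38.0 in controls and 85.2, 76.6, 90.6 and 71.3 FPKM in mutants (log2 fold change 0.60, limma adjusted p = 0.158). Ogn (osteoglycin) was at 23.0, 24.0 and 17.8 against 27.6, 30.9, 31.9 and 24.9 FPKM (0.40, limma adjusted p = 0.149). All mutants lay above all controls in both genes. The same held for Lum (lumican), at 28.3, 24.2 and 12.1 against 30.5, 30.1, 32.6 and 33.6 FPKM, where the spread among controls was wide (0.615, limma adjusted p = 0.344). Bgn, Fmod, Aspn and Prelp overlapped between the groups, with log2 fold changes of 0.19, 0.04, 0.04 and -0.04. Summed stromal markers stood at 384 to 399 in controls and 488 to 546 FPKM in mutants, and 8 of 10 were above 0 in log2 fold change; their part in these values and in the fibrillar chains was not tested.

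Of the collagen receptors, 6 were tested. Itga1, the integrin subunit that binds type IV collagen, stood at 5.90, 5.36 and 4.98 in controls and at 3.09, 4.09, 3.81 and 4.69 FPKM in mutants. The groups did not overlap (log2 fold change -0.39, limma adjusted p = 0.148). Ddr1, a receptor tyrosine kinase for collagen, stood at 30.8 to 33.4 against 26.9 to 29.6 FPKM and also lay apart (-0.17, limma adjusted p = 0.235). Ddr2, its relative that binds fibrillar collagen, overlapped at 5.82 to 8.07 and 5.82 to 9.58 FPKM.

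Promoters were examined because the deleted genes encode transcription factors. RefSeq start sites (GRCm38.p6) were found for 33 of the 42 chains, with 36 promoters, and the 250 bases upstream of each were searched on both strands for 4 motifs. The GC box GGGCGG was found in 61.1% of collagen promoters and 32.7% of all 32851 RefSeq promoters searched. That wider set was not limited to genes listed in the deposited table or matched to the chains. CCAAT was found in 36.1% and 33.8%, and TATAAA in 11.1% and 12.4%. The palindrome ACANNTGT, known as a binding sequence of Iroquois proteins, was found in 5.6% of collagen promoters, those of Col3a1 and Col8a1, and in 6.3% of all promoters. Overlaps between the motifs were not removed, and a match is a description of the letters. The 50 bases around the match are printed for these 2 chains, of which Col8a1 was lower in mutants by the deposited test and Col3a1 passed neither test. They run 5′ to 3′ on the strand of the gene, with the match in capitals.
Col3a1, GRCm38.p6 chr1:45311322-45311371, plus strand, match beginning 195 bases upstream of the start site: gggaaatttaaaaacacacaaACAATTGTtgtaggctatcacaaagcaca
Col8a1, GRCm38.p6 chr16:57754809-57754858, minus strand, match beginning 100 bases upstream of the start site: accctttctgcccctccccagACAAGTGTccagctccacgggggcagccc

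Several chains lie next to each other or over other genes in GENCODE M21, which bears on counting. Col4a1 and Col4a2, Col4a3 and Col4a4, and Col4a5 and Col4a6 are head-to-head pairs, and Col3a1 and Col5a2 lie tail to tail. Spans overlap a listed gene on the opposite strand for Col4a1 with Col4a2, Col18a1 with Slc19a1, Col9a3 with Tcfl5 and Col5a1 with 2810430I11Rik. On the same strand they overlap for Col26a1 with Gm20485 and Col20a1 with BX649560.1. The library kit marks strand, but whether the counting used it is not given in the sources used here, so values of these chains are uncertain by the reads that such stretches could hold.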

How the data were processed

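Whole-kidney RNA at E15.5 was profiled in 7 libraries, 3 control and 4 mutant, grouped by sample title. The submitters' processing notes name, with no order, STAR 2.6.0c, HTSeq 0.6.1p2, Trim Galore 0.5.0, FastQC 0.11.5 and DESeq2, and the build mm39. The authors deposited a table of 16167 genes with FPKM values per library. Per the file headers it also holds the mean normalized count signal, log2 fold changes with errors, a test statistic score, p-values and adjusted p-values of DESeq2. Values of that comparison were copied as they stand. The gene length behind FPKM is not given in the sources used here.

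Reads per library were recovered from mean counts and FPKM, and 100% of values came within 0.05 of a whole number. Values of log2(FPKM + 1) were fitted in R 4.3.3 with limma 3.58.1 for genes at 1 FPKM or more in at least 3 libraries. Empirical Bayes was trended and robust, tests were two-sided, and Benjamini-Hochberg adjustment ran over 13466 genes. Calls needed an adjusted p under 0.05. Promoter sequences came from RefSeq (GRCm38.p6), and GC content from GENCODE M21 transcripts, found for 99.89% of genes. The fit was also run on simulated counts in which all genes shared the same spread setting and libraries differed only in depth and group. That setting lacks the library differences described above, so the run does not check the calls given here.

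The members and lists were chosen with earlier results of these data known. Values per library were given for all type IV and tested fibrillar chains, for other chains called by either test and for the 3 other chains with the largest change. Further chains, among them Col25a1, Col23a1 and Col6a2, were singled out after their values were seen. Up to 4 called genes of each partner list were named, or the 2 with the smallest p. Alternatives were another pseudocount (0.1), a stricter minimum of 5 FPKM or none, median-of-ratios factors, quantile normalization, no trend and robust steps, array weights, a replicate block, limma-voom on recovered counts with median-of-ratios factors, removal of length trends (lowess span 0.3), a globin ratio covariate, the deposited test and leaving out each library. Removal of GC trends was added after seeing the data. Results of the podocyte marker list are not reported here.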

Additional observations from a re-analysis of the deposited data

Results flagged for a closer look

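In 4 chains, mutant replicate 3 stood apart from the other 3 mutants by Dixon's test at the 95% level, which sets the gap to the nearest value against the range of the 4 mutants. Col5a2 was at 38.8 FPKM in that library (gap 0.91 of the range), Col18a1 at 66.9 FPKM (0.867), Col9a1 at 5.83 FPKM (0.855) and Col6a6 at 2.33 FPKM (0.865). The test was applied to 46 series of values, and chance alone flags about 1 in 20 groups. None of the 4 was called in limma or in the authors' deposited table.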

How the results depend on the processing

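With 21 alternatives per chain at most, 21 of the 31 tested chains kept their direction in all that could be run and 27 were called in none. The number of chains called (2 in limma) was 1 with a minimum of 5 FPKM, 4 with array weights (adding Col25a1 and Col26a1), 4 in the deposited test, and 0 to 1 when a library was left out, apart from mutant replicate 1. Fibrillar chains called (1) were 0 with a minimum of 5 FPKM, 0 with the GC trend removed, 0 with length and GC trends removed, and 0 when any library other than mutant replicate 1 was left out (without a control, Col11a2 falls under the filter). Other chains called (1) were 2 without the filter, 3 with array weights, 2 with the GC trend removed, 2 with length and GC trends removed, 3 in the deposited test, and 0 when any control, mutant replicate 2 or mutant replicate 4 was left out. Partner genes called (0) were 4 with array weights, 3 with length and GC trends removed and 7 in the deposited test. The cause was not tested. Without control replicates 1 to 3 the number of all genes called (206) was 14, 11 and 54, without mutant replicates 1 to 4 it was 486, 42, 124 and 33, and it was 1302 with array weights and 886 in the deposited test. It was 109 with a pseudocount of 0.1, 60 with a minimum of 5 FPKM, 422 with length trends removed and 404 with length and GC trends removed.

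Whether the replicate numbers pair the samples is not stated. Same-numbered libraries correlated at -0.156, 0.028 and 0.098 in their deviations from the group means. Differently numbered libraries ran from -0.253 to 0.141, a range that holds the same-numbered values, so these correlations cannot decide whether samples were paired. With the replicate number as a block, 0 chains were called (0 fibrillar, 0 other) and 2 of all genes, with adjusted p of 0.143 for Col11a2 and 0.177 for Col13a1, and log2 fold changes of Col4a5 at 0.002, Col18a1 at 0.009 and Col12a1 at -0.014.

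Signs turned in 10 chains, none of them called, with log2 fold changes from -0.049 (Col6a3) to 0.223 (Col1a1). Leaving out single libraries moved Col4a5 between -0.072 and 0.058, Col18a1 between -0.047 and 0.033, Col6a3 between -0.236 and 0.212 and Col12a1 between -0.249 and 0.271. The same step moved Col1a1 between -0.003 and 0.527, Col5a1 between -0.023 and 0.34, Col15a1 between -0.026 and 0.17, Col14a1 between -0.073 and 0.332, Col9a2 between -0.011 and 0.377 and Col9a1 between -0.081 and 0.227. Col4a5 was also 0.026 with quantile normalization, 0.061 with array weights, 0.011 with the length trend removed and 0.017 with length and GC trends removed. Col18a1 was 0.021 with array weights, 0.016 with the length trend, 0.113 with the GC trend and 0.13 with both removed. Col6a3 was 0.033 with array weights and 0.012 with length and GC trends removed. Col12a1 was -0.031 with limma-voom, -0.091 with the globin covariate and -0.006 with the GC trend removed. Chains under 1 FPKM rest on few reads, down to 10 per library for Col28a1, and were not tested.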
